A study of Homo sapiens with 4 samples.

Results

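The classical MHC class II chain genes of HLA-DR, HLA-DP and HLA-DQ were examined in THP1 cells whose MLL-AF9 had been silenced by siRNA. Members were the 9 genes HLA-DRA, HLA-DRB1, HLA-DRB3, HLA-DRB4, HLA-DRB5, HLA-DPA1, HLA-DPB1, HLA-DQA1 and HLA-DQB1, and each of their probes with a deposited quality weight above 0 on every array was kept. This gave 17 member probes on 26 spots, of 26219 probes on 33323 spots in all. The probes covered all 9 genes, among 19755 gene names measured. THP1 is an established monocytic line of acute myeloid leukemia of the M5 subtype, and it carries the MLL-AF9 fusion gene, so that all arrays describe 1 cell line. Transfections took place on days 0, 3 and 6, and RNA was taken on day 8, in medium with 10% serum up to day 6 and 0.5% serum afterwards. The knockdown siRNAs were siRNA3 and siRNA4, both directed against the fusion, and control siRNA-1 and control siRNA-2 served as controls. RNA of 5 experiments was pooled for an array, which left 2 knockdown arrays against 2 control arrays.

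A class II molecule is a pair of an alpha and a beta chain on the cell surface that presents peptides from the endosomal pathway to CD4+ T cells. Monocytes, B cells and dendritic cells express it. DR, DP and DQ are its isotypes, each with its own alpha gene (HLA-DRA, HLA-DPA1, HLA-DQA1) and its own beta gene or genes, all within the MHC on the short arm of chromosome 6. HLA-DRB3, HLA-DRB4 and HLA-DRB5 are further DR beta loci that are present on some MHC haplotypes and absent from others. The promoters of these genes share the X and Y boxes, on which the RFX complex and NF-Y assemble and recruit CIITA, the coactivator of class II transcription.

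The sequences of 2 probes are shown first because they are the closest pair among the 123 pairs of member probes of different genes. The HLA-DRB1 probe lies at chr6:32548524-32548583 and the second HLA-DQB1 probe at chr6:32629125-32629184, both on the minus strand of hg19, the build of the array's annotation. Capitals mark the bases at which they differ.
HLA-DRB1 probe: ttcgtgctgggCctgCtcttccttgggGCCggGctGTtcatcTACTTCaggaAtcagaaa
HLA-DQB1 probe 2: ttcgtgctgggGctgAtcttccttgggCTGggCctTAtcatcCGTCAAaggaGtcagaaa
They matched at 45 of 60 positions, and no other such pair matched at more than 70% of the positions compared, without gaps and over at least 40 bases. The first HLA-DQB1 probe is shown because its annotated position, chr6:32725597-32725656, lies 1079 bases from that of the HLA-DQB2 probe, whereas the other HLA-DQB1 probes lie 97551 and 98725 bases from it.
HLA-DQB1 probe 1: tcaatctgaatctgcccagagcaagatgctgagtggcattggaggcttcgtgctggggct
The HLA-DRB3 probe at chr6:32522692-32522750 and the HLA-DRB4 probe, for which the scanner tables give no position, are shown because their loci vary between haplotypes.
HLA-DRB3 probe: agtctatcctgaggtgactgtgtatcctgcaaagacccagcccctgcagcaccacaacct
HLA-DRB4 probe: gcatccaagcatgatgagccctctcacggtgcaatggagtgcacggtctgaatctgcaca
One coding probe of each DP chain is shown because the DP genes changed most. The HLA-DPA1 probe lies at chr6:33036886-33036945 on the minus strand. The HLA-DPB1 probe is annotated to chr6:33052981-33053587 on the plus strand, a span of 607 bases for 60 bases of probe, so that it crosses an intron.
HLA-DPA1 probe 1: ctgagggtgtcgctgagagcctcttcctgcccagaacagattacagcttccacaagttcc
HLA-DPB1 probe 3: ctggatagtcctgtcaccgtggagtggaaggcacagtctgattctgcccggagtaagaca
Whether a probe bound the transcripts of related loci was not tested. Probes of a gene are numbered by their position in the transcript they were designed on.

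For all 17 member probes, either knockdown array read higher than either control array. This held for 15.2% of all probes, and 21.4% showed the opposite order. In limma 16 of the 17 were called higher at an unadjusted p under 0.005 and 0 lower, where 0.584% of all probes were called higher and 1.32% in either direction. A Benjamini-Hochberg adjusted p under 0.05 over all probes was reached by 7 of them, the 6 HLA-DP probes and 1 of the 3 HLA-DQA1 probes, where 0.0648% of all probes reached it in this direction. The member probe with the lowest log2 fold change, HLA-DQA1 probe 1, was not called. With quantile, cyclic loess or normexp normalization, with the background-subtracted signals and with any array left out, 0 member probes reached the adjusted threshold. The unadjusted threshold was then passed by 13 to 15 probes after the normalizations, beside 0.58% to 0.679% of all probes called higher. It was passed by 5 probes with the scaled and by 9 with the unscaled background-subtracted signal, beside 0.305% and 0.366%. With 1 array left out it was passed by 1 to 11. The median log2 fold change was 0.87 over the members and -0.02 over all probes. These are levels of RNA in cell pools, in which a change in every cell and a change in the share of cells that express a gene cannot be told apart.

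**Figure D1:**
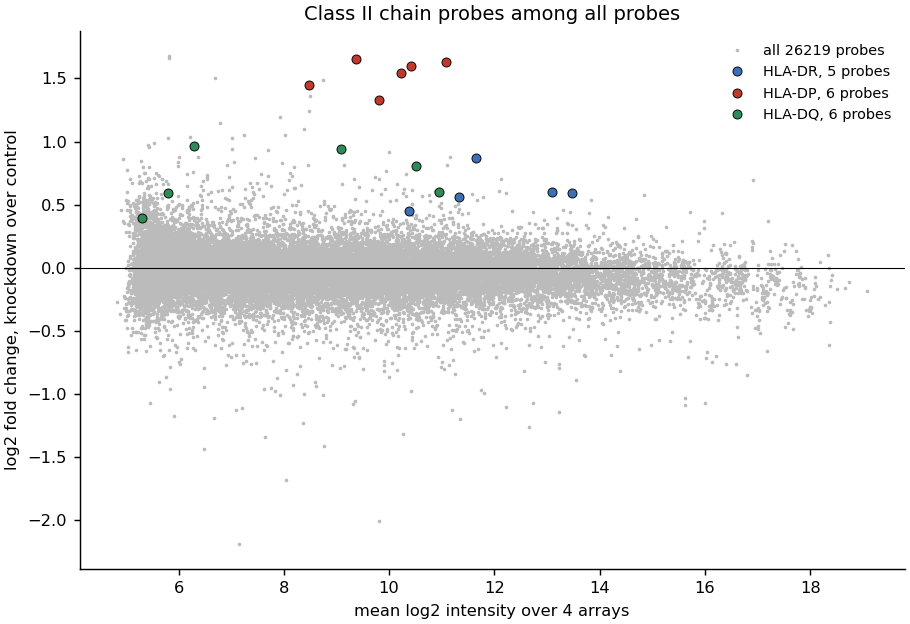
Log2 fold change after knockdown (y axis) against the mean log2 intensity over 4 arrays (x axis) for all 26219 probes (grey) and for the 17 class II chain probes (coloured by isotype). All 17 lie above 0, from 0.40 to 1.65, and the 6 HLA-DP probes lie highest among them.

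HLA-DP transcripts rose most. HLA-DPB1, the DP beta chain gene, was measured by 4 probes, and the log2 intensity of its probe 4 was 11.84 with siRNA3 and 11.97 with siRNA4, against 10.55 with control siRNA-1 and 10.00 with control siRNA-2. Probe 3 read 10.98 and 11.00 in the knockdown arrays and 9.70 and 9.20 in the control arrays. Probe 2 read 10.10 and 10.29 against 8.85 and 8.24. Both knockdown arrays were high and close to each other, control siRNA-2 was the lowest array for every HLA-DPB1 probe, and the groups did not overlap. The log2 fold changes of the 4 probes lay between 1.45 and 1.65, a 2.73- to 3.14-fold rise. For probe 4 it was 1.63 with a standard error (SE) of 0.17 (2 against 2 arrays, adjusted p = 0.0240 in limma), and for probe 2 it was 1.65 with an SE of 0.19 (adjusted p = 0.0321). All 4 probes reached the adjusted threshold.

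HLA-DPA1 encodes the alpha chain that pairs with the product of HLA-DPB1. Its probe 2 read 11.34 with siRNA3 and 11.08 with siRNA4, against 9.89 with control siRNA-1 and 9.34 with control siRNA-2. Its probe 1 read 10.63 and 10.32 against 9.35 and 8.94. The siRNA3 array was the highest for both HLA-DPA1 probes, and the groups did not overlap. The log2 fold change was 1.60 for probe 2 (SE 0.18, adjusted p = 0.0321 in limma) and 1.33 for probe 1 (SE 0.16, adjusted p = 0.0336). As means over their probes, the alpha and the beta chain of DP rose 2.76- and 2.96-fold. Of the 6 DP probes 4 were called with the scaled background-subtracted signal, 1 when siRNA4 was left out, 0 when siRNA3 was left out, and all 6 under the other alternatives.

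HLA-DR transcripts rose by less. HLA-DRA, the only DR alpha gene, read 11.97 with siRNA3 and 12.18 with siRNA4, against 11.39 with control siRNA-1 and 11.02 with control siRNA-2. Its log2 fold change was 0.87 (SE 0.15), which passed the unadjusted criterion only (adjusted p = 0.132 in limma). HLA-DRB1, the DR beta gene that every haplotype carries, read 13.71 and 13.82 in the knockdown arrays and 13.29 and 13.06 in the control arrays. The groups did not overlap for either gene, and siRNA4 was the higher knockdown array in both. The log2 fold change of HLA-DRB1 was 0.59 (SE 0.12, adjusted p = 0.226).

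The probes of the further DR beta loci rose by 0.45 to 0.60 on the log2 scale. Which of these loci THP1 carries was not determined, and whether each probe read its own locus was not tested. HLA-DRB5 read 13.35 with siRNA3 and 13.42 with siRNA4, against 12.96 and 12.62 with the control siRNAs, a log2 fold change of 0.60 (SE 0.14, adjusted p = 0.253 in limma). HLA-DRB3 read 11.68 and 11.52 against 11.16 and 10.92, a log2 fold change of 0.56 (SE 0.13, adjusted p = 0.253). HLA-DRB4 had the smallest change of the DR probes, with 10.54 and 10.66 against 10.22 and 10.08 and a log2 fold change of 0.45 (SE 0.12, adjusted p = 0.347). All 5 DR probes passed the unadjusted criterion and 0 the adjusted one. After quantile normalization, with or without normexp, 4 of the 5 were called, and after cyclic loess normalization 3. With the background-subtracted signals 0 of the 5 was called, at log2 fold changes between 0.54 and 0.87, and also 0 without siRNA3, siRNA4 or control siRNA-2. The array's annotation gives the HLA-DRB1 probe accessions of both HLA-DRB1 and HLA-DRB3, so that signal of these 2 loci cannot be told apart by it.

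The HLA-DRB1 probe was printed on 10 spots of each array, which gives the technical spread. The standard deviation of the 10 spots within an array lay between 0.13 and 0.17 on the log2 scale. The mean level of the spots differed between the control arrays by a standard deviation of 0.16 and between the knockdown arrays by 0.07 (n = 2 each). Spots that were bright on 1 array were bright on the others, and the log2 fold change of single spots ranged from 0.54 to 0.73, with a median of 0.58. Each of the 10 spots was higher on both knockdown arrays than on both control arrays.

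**Figure D2:**
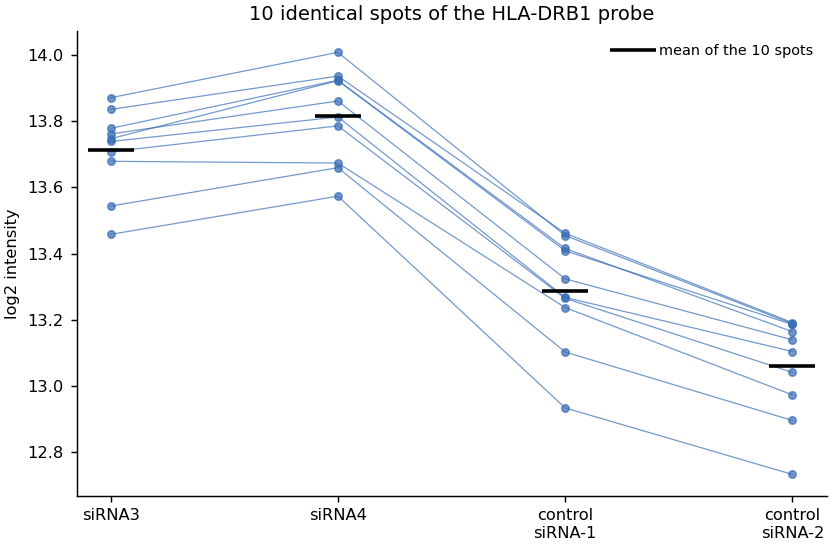
Log2 intensity (y axis) of the 10 identical spots of the HLA-DRB1 probe on each of the 4 arrays (x axis), with lines joining the same spot and black bars for the mean of the spots. Every line falls from the knockdown to the control arrays, and each is lowest with control siRNA-2.

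HLA-DQ transcripts rose as well. HLA-DQB1, the DQ beta chain gene, read 9.53 with siRNA3 and 9.57 with siRNA4 by its probe 3, against 8.83 with control siRNA-1 and 8.39 with control siRNA-2. Its probe 2 read 10.80 and 11.03 against 10.29 and 9.91. Probe 1, annotated to a position next to the HLA-DQB2 probe, read 11.32 and 11.17 with siRNA3 and siRNA4 and 10.79 with control siRNA-1, with a difference of -0.29 from there to control siRNA-2. Whether its signal came from HLA-DQB1 or HLA-DQB2 was not tested. The groups did not overlap for any of the 3, and control siRNA-2 was again the lowest array. The log2 fold changes were 0.94, 0.81 and 0.60 for probes 3, 2 and 1, with standard errors of 0.15, 0.15 and 0.13. All 3 were called at the unadjusted threshold, and their adjusted p in limma lay between 0.105 and 0.241. Probe 1 was no longer called after quantile or cyclic loess normalization (unadjusted p = 0.00732 and 0.00786 in limma).

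HLA-DQA1, the DQ alpha chain gene, was dim. Its probe 3, the only one that the scanner software marked as well above background on all 4 arrays, read 6.71 with siRNA3 and 6.82 with siRNA4, against 5.88 with control siRNA-1 and 5.73 with control siRNA-2. Its log2 fold change was 0.96 (SE 0.12, adjusted p = 0.0336 in limma). Probe 2 passed the background limit on both knockdown arrays and 1 control array. Its log2 fold change was 0.59 (SE 0.13), with an adjusted p of 0.226 in limma. Probe 1 passed it on 1 knockdown array and on neither control array. Its mean log2 intensity was 5.50 in the knockdown and 5.11 in the control arrays, and it was not called. Since it was well above background on 1 of 4 arrays, the size of its difference is not settled. The fitted log2 fold change was 0.40 (adjusted p = 0.464 in limma) on the deposited intensity, 0.28 without siRNA4 and 0.20 after normexp background correction and quantile normalization. Another HLA-DQA1 probe had a weight of 0 on every array, was well above background on none and was left out. The local background median of the scanner tables equalled 42.9% to 65.7% of the deposited intensity of probe 1, 27.8% to 45.9% for probe 2 and 19.0% to 40.7% for probe 3, beside 0.159% to 0.219% for the HLA-DRB1 probe. With the background-subtracted signal of the scanner software, scaled to the 75th percentile of each array, the HLA-DQA1 probes 1, 2 and 3 differed by 1.05, 1.59 and 1.72. Probe 2 was then no longer called, nor was any HLA-DQB1 probe, at 0.66, 0.83 and 1.06 for probes 1, 2 and 3. With the unscaled background-subtracted signal probe 2 of HLA-DQA1 (1.56) and probe 3 of HLA-DQB1 (1.03) were called. The HLA-DRB1 probe differed by 0.65 with the scaled signal, by 0.62 with the unscaled one and by 0.59 on the deposited intensity.

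**Figure D3:**
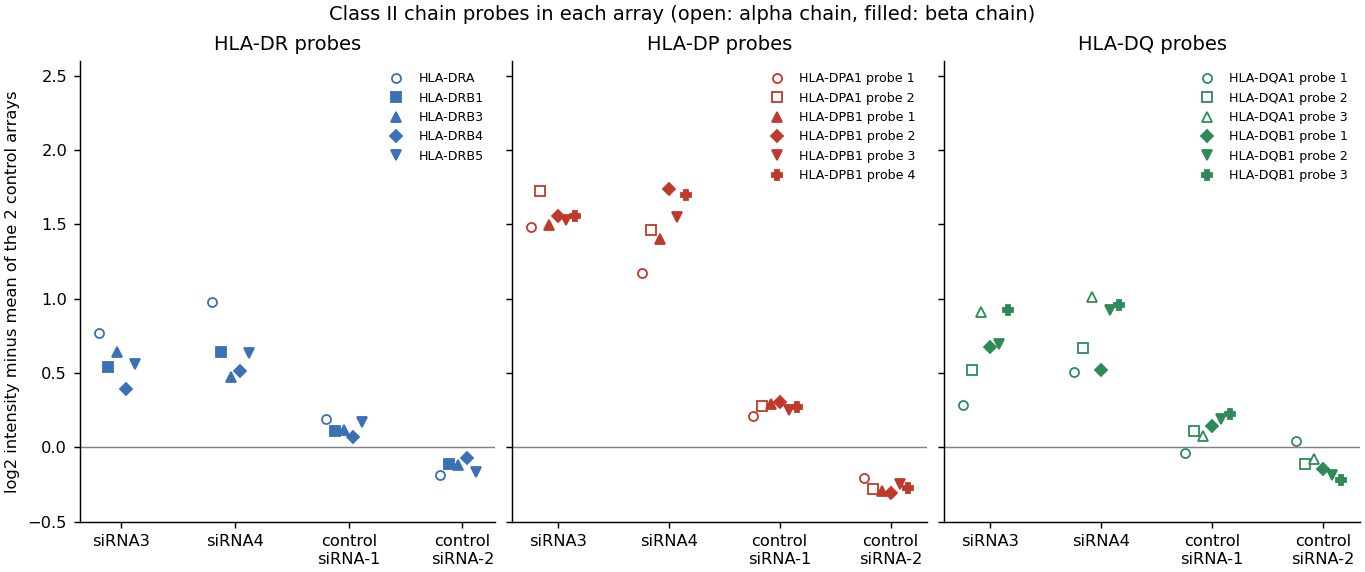
Log2 intensity of each class II chain probe in each of the 4 arrays (x axis), minus its mean over the control arrays (y axis), in 1 panel per isotype, with open symbols for alpha and filled symbols for beta chains. In each panel both knockdown arrays lie above both control arrays for every probe, and control siRNA-2 lies below control siRNA-1 for 16 of the 17 probes.

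By isotype, the mean log2 difference between knockdown and control arrays was 1.51 for DP, 0.72 for DQ and 0.61 for DR, with probes of a gene and then genes of an isotype weighted equally. Relative to the control mean, the DP mean was 1.57 with siRNA3 and 1.46 with siRNA4, and the control arrays lay 0.26 above and below it. The DR mean was 0.58 and 0.65 in the knockdown arrays, and the controls lay at 0.13 and -0.13. The DQ mean was 0.67 and 0.77, with the controls at 0.12 and -0.12. The difference between DP and DR was 0.90 (0.99 with siRNA3 and 0.81 with siRNA4, with the controls at 0.13 and -0.13), and it exceeded the spread of either pair of arrays. No test was run on these means, since the members were chosen with results known. At the level of single probes, the lower 95% limits of the 6 DP probes lay between 0.95 and 1.23, above the upper limits of all 4 DRB probes, which lay between 0.72 and 0.91. They lay above the upper limit of HLA-DRA (1.21) for 2 of the 6 and above that of every DQ probe (up to 1.29) for 0. All 6 DP probes had larger log2 fold changes than every other member probe on the deposited intensity.

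The mean of DP stayed above that of DQ, but the ranges of their probes overlapped with the background-subtracted signals. With the scaled signal 2 of the 6 DP probes exceeded all DQ probes, and the means were 1.63 for DP and 1.15 for DQ. All 6 still exceeded every DR probe. DQ minus DR was 0.10 on the deposited intensity, 0.48 with the background-subtracted signal and -0.03 after normexp background correction and quantile normalization, so that these 2 isotypes had no settled order. Without HLA-DQB1 probe 1 the difference was 0.15. Without HLA-DQA1 probe 1, which was well above background on 1 of 4 arrays, the DQ mean was 0.78, DQ minus DR was 0.17 and the alpha minus beta difference of DQ was -0.006.

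Between chains there was no common direction. HLA-DRA exceeded the mean of the DR beta genes by 0.32, with 0.24 for siRNA3 and 0.41 for siRNA4 against 0.07 and -0.07 in the controls. HLA-DPA1 and HLA-DPB1 differed by -0.10, and HLA-DQA1 and HLA-DQB1 by -0.13. For both of these the knockdown and control arrays overlapped. The sign for DQ turned with the background-subtracted signal, to 0.60, while DR gave 0.24 and DP -0.10. Over the 3 isotypes the alpha chains exceeded the beta chains by 0.03, less than the standard deviation of 0.05 between the control arrays. With the background-subtracted signal the mean over isotypes was 0.25.

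**Figure D4:**
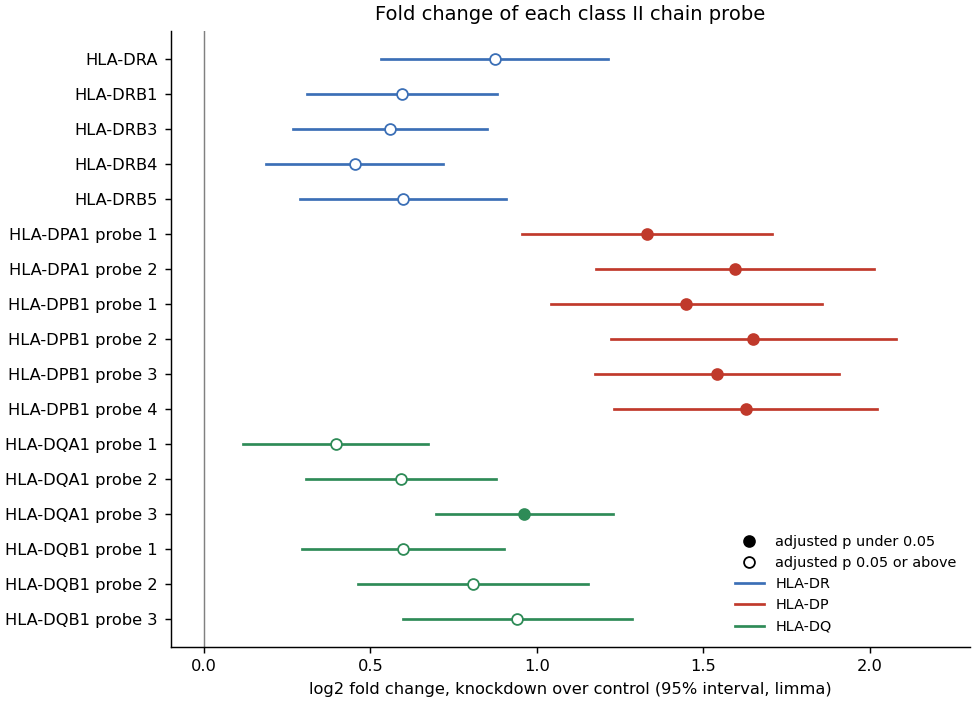
Log2 fold change of each class II chain probe with its 95% interval from limma (x axis), coloured by isotype, with filled points for an adjusted p under 0.05. The 6 HLA-DP probes lie between 1.33 and 1.65, and the highest other probe, HLA-DQA1 probe 3, at 0.96.

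Between the siRNAs of a group, the control arrays differed more than the knockdown arrays. Control siRNA-2 read lower than control siRNA-1 for 16 of the 17 member probes, by a median log2 difference of 0.37 in size, whereas 31.3% of all probes were lower and the median of all probes was 0.06 higher. Of all probes, 1.9% were lower with control siRNA-2 by as much as the median member or more. The exception was HLA-DQA1 probe 1, with a difference of 0.08. For DP the median difference between the control arrays was -0.55, for DQ -0.25 and for DR -0.23. Between siRNA3 and siRNA4 the member probes differed by -0.23 to 0.31, with siRNA3 the lower for 12 of 17, beside 61.7% of all probes. Without control siRNA-2 the DP mean fell to 1.25 and 7 member probes were called, and without control siRNA-1 it was 1.78 and 11 were called, beside 0.0801% and 0.16% of all probes. Without siRNA3 1 member probe was called, beside 0.29% of all probes, and without siRNA4 2, beside 0.519%, although the DP mean was 1.46 and 1.57. The 4 arrays sat side by side on 1 slide with 1 array per position, the knockdown arrays next to each other, so that treatment and position cannot be told apart.

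**Figure D5:**
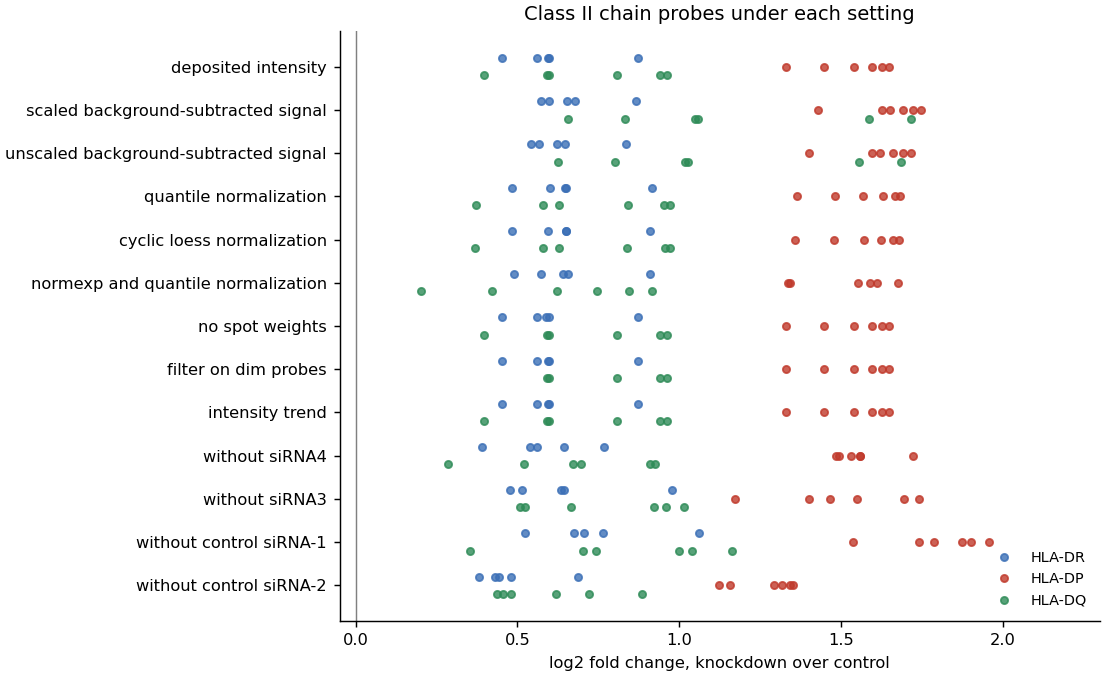
Log2 fold change of each class II chain probe (x axis) under the deposited intensity and 12 alternative settings (y axis), coloured by isotype. No probe falls below 0 under any setting shown, and the DP and DQ probes overlap only with the background-subtracted signals.

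The promoters are shown because the members moved together. Of the 9 genes, 6 had an entry among the RefSeq promoters of GRCh38.p14, which cover 250 bases before to 50 bases after a start site. HLA-DRA, HLA-DRB3 and HLA-DRB4 had none. The stretches were searched for AGNAAC, the core of the X box, and ATTGG, the core of the Y box, which do not overlap each other. Capitals mark these letters, and each stretch runs 5′ to 3′ on the strand of its gene, upstream of the start.
HLA-DRB1, chr6:32589882-32589935: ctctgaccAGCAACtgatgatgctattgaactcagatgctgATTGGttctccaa
HLA-DRB5, chr6:32530365-32530418: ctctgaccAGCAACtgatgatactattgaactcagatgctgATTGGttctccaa
HLA-DQA1, chr6:32637296-32637350: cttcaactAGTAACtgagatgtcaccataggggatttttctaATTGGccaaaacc
HLA-DQB1, chr6:32666733-32666789: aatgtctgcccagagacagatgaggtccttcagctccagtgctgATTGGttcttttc
HLA-DPB1, chr6:33075847-33075903: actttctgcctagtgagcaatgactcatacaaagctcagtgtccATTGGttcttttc
HLA-DPA1, chr6:33073703-33073756: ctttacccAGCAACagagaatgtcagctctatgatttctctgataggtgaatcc
The members were counted per gene and upstream of the start only, over 7 entries. The shares of all promoters are per entry and include the 50 bases after the start. ATTGG was found on the gene's strand in 5 of the 6 genes, beside 20.3% of all 35116 promoters (34.6% on either strand). AGNAAC was found in 4, beside 24.7% (42.4% on either strand). Both in this order, 33 or 34 bases apart from first letter to first letter, stood before HLA-DRB1, HLA-DRB5 and HLA-DQA1. A distance of 10 to 40 bases occurred in 0.812% of all promoters on the gene's strand and 1.52% on either. A second HLA-DPA1 entry held neither. A match is a run of letters, and occupancy of these promoters was not measured.

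Beside the classical chains, 17 of 19 other genes of the class II pathway were measured by their brightest probe. Of these 5 were called higher and 0 lower, beside 0.613% of all genes called higher, with a median log2 fold change of -0.13 over the list and -0.02 over all genes. They were HLA-DMB (1.49, SE 0.15, adjusted p = 0.0240 in limma) and HLA-DMA (0.70), which encode the chains of the peptide exchange factor HLA-DM, IFI30 (0.91), a lysosomal thiol reductase, the coactivator CIITA (0.83) and the invariant chain CD74 (0.77). The adjusted p in limma was 0.229 for HLA-DMA, 0.207 for IFI30, 0.0753 for CIITA and 0.105 for CD74. Of 12 alternative fits, HLA-DMB was called in 12, CIITA in 10, CD74 in 8, IFI30 in 6 and HLA-DMA in 5, and 1 of the 2 CIITA probes was called. At an unadjusted p under 0.05 the list held the same number of genes that were higher, 5, beside 3.25% of all genes, and 2 that were lower, RFX5 (-0.40) and CTSL1 (-0.28), beside 4.78% of all genes. Of the class II loci outside the classical chains 3 of 4 were called higher, HLA-DPB2 (0.94), HLA-DQB2 (0.67) and HLA-DQA2. Their adjusted p in limma was 0.0405, 0.139 and 0.152 in this order. Whether their probes read transcripts of the classical chains was not tested. The HLA-DQA2 probe was well above background on neither control array, with a mean log2 intensity of 5.87 in the knockdown and 5.28 in the control arrays, and its log2 fold change ran from 0.33 to 1.65 over the alternatives. The pseudogene HLA-DRB6 differed by -0.34 (adjusted p = 0.767). By their brightest probe, 0 of 10 class I genes, 0 of 16 interferon-gamma induced genes and 0 of 7 costimulatory genes were called in limma at an unadjusted p under 0.005. Of all genes 0.613% were called higher and 0.729% lower, so that lists this short would hold few or no called genes at those shares. Another of the 3 HLA-B probes was called lower (-0.64, SE 0.11, adjusted p = 0.141). At an unadjusted p under 0.05 these lists held 0, 0 and 1 genes, the last lower, beside 3.25% of all genes higher and 4.78% lower.

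Over the 4 arrays, the genes whose centred log2 profile lay closest to the mean profile of the 9 members, among 19580 probes of other named genes well above background on every array, were CD74 (root mean square distance 0.05), HLA-DPB2 (0.06), HLA-DMA (0.08), SERPINB8 (0.09) and CIITA (0.09). The mean profile was 0.40 with siRNA3, 0.44 with siRNA4, -0.26 with control siRNA-1 and -0.58 with control siRNA-2.

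The targeted fusion joins MLL to MLLT3, the gene of AF9. Both MLLT3 probes fell, by 0.76 and 0.63 on the log2 scale (adjusted p = 0.0639 and 0.182 in limma), and 0 of 4 MLL probes was called. The brightest MLL probe differed by -0.41 (SE 0.11, unadjusted p = 0.00590 and adjusted p = 0.403 in limma), and the other 3 by -0.08 to 0.05. The fusion holds only part of MLL, and a probe outside that part reads wild-type MLL only. Which MLL probes lie inside it was not determined, so that their count is no check of the knockdown. Markers of B cells, T cells and dendritic cells, other types that express class II or contact cells that do, were called in 0 of 5, 0 of 5 and 0 of 2 measured genes, and in 0 of each at an unadjusted p under 0.05. Of all genes 0.613% were called higher and 0.729% lower, and 3.25% and 4.78% at an unadjusted p under 0.05, so that lists this short would hold few or no called genes at those shares. The B cell list summed to an intensity of 2245 to 2402 in the knockdown arrays and 2276 to 2364 in the control arrays, and MS4A1 was well above background on 1 array only. Of 8 monocytic markers, all well above background on every array, 7 were not called, and the median log2 fold change was -0.12. On both knockdown arrays CD14 and CSF1R, 2 of the 8, lay above both control arrays, beside 15.2% of all genes, and CD68, MPO and CD4, 3 of the 8, lay below both, beside 20.9% of all genes. CD14 alone was called, with a rise of 1.05 (SE 0.13, adjusted p = 0.0355). The part of CD14-expressing cells in the class II difference was not tested.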

How the data were processed

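Total RNA of 4 siRNA treatments, each a pool of 5 experiments, was hybridised to 1-colour Agilent arrays. Spots were read with Agilent Feature Extraction 10.5.1.1, per the submitters' notes. The authors deposited an intensity per spot, equal to the median pixel signal in 100% of spots, without background correction or normalization between arrays, and a weight, given here as a fraction of full weight (0, 0.5 or 1). How the weights were set is not given in the sources used here. The deposited scanner tables also hold a background-subtracted intensity and flags. Of their 61 columns 48 were not used.

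Of 44495 spots 1377 control spots were left out, as were spots with a weight of 0 on an array. Median log2 intensities of the arrays lay between 8.56 and 8.66, and 70.0% to 74.3% of spots were well above background. Log2 means of identical spots were fitted in limma 3.58.1 (R 4.3.3) with the deposited weights, and a probe was called at an unadjusted p under 0.005. The study also required a test over the identical spots of a probe, which was not used here. Adjusted p (Benjamini-Hochberg) are over all 26219 probes. Means over members and levels per array are unweighted averages of log2 values. The number of arrays limits the precision: for 2 against 2 arrays a two-sided exact permutation p cannot go below 0.333, while limma pools the variance over probes. The fit was tested on simulated data.

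The members and the gene lists were chosen with earlier results of these data known. Genes named are all members, both partners of the fusion, up to 4 called genes of each list with the smallest p, every called gene of the class II pathway list, and the 5 probes most like the members. HLA-DRB6, MS4A1, RFX5, CTSL1, HLA-B, CSF1R, CD68, MPO and CD4 are named beyond this rule, chosen after their values were seen. Knockdown siRNAs carry the names of the labels, siRNA3 and siRNA4. Alternatives were the scaled and unscaled background-subtracted signal, quantile and cyclic loess normalization, normexp with an offset of 50, an unweighted fit, leaving out dim probes, a variance trend with intensity, single spots, the adjusted threshold and the omission of each array. The omission of HLA-DQB1 probe 1, and of HLA-DRB3 and HLA-DRB4, was chosen after seeing the data. Probe positions are hg19 as the array's annotation gives them. Promoters are RefSeq's, on GRCh38.p14, and positions were not converted between builds.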

Additional observations from a re-analysis of the deposited data

How the results depend on the processing

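No member probe changed direction under any of the 12 alternative fits. Of 203 values of single probes under these fits, 136 stayed on the same side of the unadjusted threshold and 67 were no longer called. The 16 called member probes became 5 with the scaled background-subtracted signal and 9 with the unscaled one, beside 0.305% and 0.366% of all probes, 7 at an adjusted p under 0.05, beside 0.0648%, and 1 to 11 with 1 array left out, where the remaining array of that group took its variance from the other group and the prior of limma. Under the remaining alternatives the count lay between 13 and 16. The DQ mean of 0.72 was 1.15 with the scaled background-subtracted signal and 1.12 with the unscaled one. DQ minus DR, 0.10, was 0.48 with either of these, 0.066 after quantile and 0.067 after cyclic loess normalization, 0.17 with the filter on dim probes, 0.15 without HLA-DQB1 probe 1 and reversed to -0.027 after normexp and quantile normalization. The alpha minus beta difference of 0.03 was 0.25 with either background-subtracted signal, 0.071 with the filter on dim probes and -0.034 after normexp and quantile normalization. The causes were not tested. Over all alternatives DP minus DR, 0.90, ranged from 0.77 to 1.03, and the DP mean was 1.63 with the scaled background-subtracted signal and the DR mean 0.69 without HLA-DRB3 and HLA-DRB4. With 1 array left out, the means ranged from 1.25 to 1.78 for DP, 0.48 to 0.75 for DR and 0.60 to 0.83 for DQ, and the alpha minus beta difference from -0.01 to 0.06. No paired analysis was possible, because each array held a pool of 5 experiments and the labels pair no knockdown array with a control array. The spread within a group is therefore that between siRNAs and arrays, and the spread between experiments was not measured.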
